A study of Homo sapiens with 3 samples.

Results

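The p53 pathway and GADD45 growth arrest genes are 31 genes that halt the cell cycle, repair DNA, remove damaged cells or restrain p53 itself. They were listed by name, with earlier results of these data known, and read through the probe sets whose single gene symbol in the platform annotation is on the list. Of the 31, 29 were measured, by 73 probe sets, among 19775 genes in all. BTG2 and FDXR were not analysed here. The cells were SKBR3, a long-established line from a human breast cancer that carries ERBB2 amplification and is known to lack oestrogen receptor α. They were kept for 4 h in 10% charcoal-stripped serum, which is poor in steroid hormones, and then received 1 µM estradiol, 1 µM ERα17p (a peptide copied from oestrogen receptor α) or 0.1% ethanol as vehicle, and were harvested for RNA after 3 h. With 1 array per treatment the differences carry neither replicate error nor test, and in bulk RNA a shift in the share of cells and in RNA per cell cannot be told apart.

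The transcription factor p53 is held low by MDM2 and MDM4 and is released when DNA is damaged. It then switches on CDKN1A and other brakes on the cell cycle, repair genes, genes of cell death, and MDM2 and PPM1D, which shut the response off again. Several of these genes, CDKN1A, GADD45A and GADD45B above all, are also switched on without p53, by inflammatory, growth factor and stress signals.

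Values are distances, in log2 units, from a centre that had been taken off every probe set before deposit, here called the baseline. They allow arrays to be compared for a given gene and give no expression level. Which arrays the centre was taken over is unknown, so a value near it does not show which array changed. A gene's value is the median over its probe sets. "Lower" and "higher" mean a difference of at least 1.5-fold (0.585 log2 units) between 2 arrays. The array labelled vehicle stood apart. The standard deviation over probe sets was 0.12 on the estradiol array, 0.13 on the ERα17p array and 0.27 on the array labelled vehicle, and 1.5-fold or more above the baseline lay 1 gene with estradiol, 13 genes with ERα17p and 465 genes on it. For ACTB the 3′ probe set minus the 5′ one, which speaks to how intact the RNA was, gave 0.02 with estradiol, -0.04 with ERα17p and 0.30 on the array labelled vehicle. For GAPDH it gave 0.01, -0.03 and 0.05 in the same order, values much nearer each other. The part of RNA quality in the results was not tested. Both treatments are set against this single array, so their differences from it share it. The members, and the counts of the further lists, are therefore also given against the baseline. Differences of the 9 luminal markers lay between -0.17 and 0.41 over the 3 comparisons, and those of the 7 measured markers of leukocytes, endothelium and fibroblasts between -0.22 and 0.20. Whether any marker is expressed cannot be read from such values.

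Against the array labelled vehicle, the same 6 members were lower with estradiol and with ERα17p: the growth arrest genes GADD45A, CDKN1A and GADD45B, the p53 phosphatase gene PPM1D, and the cell death genes AEN and DRAM1. No member was higher in either comparison. The 6 of 29 are 20.7% of the members, while 2.93% of all genes were lower with estradiol and 2.14% with ERα17p. The higher side held 0.809% and 0.582% of all genes. The other 23 members lay between -0.47 and 0.13 with estradiol and between -0.48 and 0.37 with ERα17p. The median over the members was -0.11 with estradiol and -0.01 with ERα17p, beside 0.03 over all genes in both. Below 0 lay 23 of 29 members (79.3%) with estradiol and 16 of 29 (55.2%) with ERα17p, beside 43.8% and 41.9% of all genes. Most of the 29 thus differed little from the array labelled vehicle, and a small set of them by a wide margin.

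On the treated arrays few members lay 1.5-fold or more from the baseline. With estradiol, CDKN1A alone of the members was below the baseline by that margin, 1 of 10 such genes among all 19775 (0.0506%), followed by CCNG2 (-0.36), and no member was above it (0.00506% of all genes). With ERα17p no member was 1.5-fold away from the baseline on the higher side (0.0657% of all genes) or the lower side (0.00506%). Members with a negative value numbered 23 of 29 on the estradiol array and 6 of 29 on the ERα17p array, with medians of -0.04 and 0.07. The array labelled vehicle held all 6, and no other member, at least 1.5-fold above the baseline, where 2.35% of all genes lay, and no member as far below it, where 0.303% lay.

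**Figure D1:**
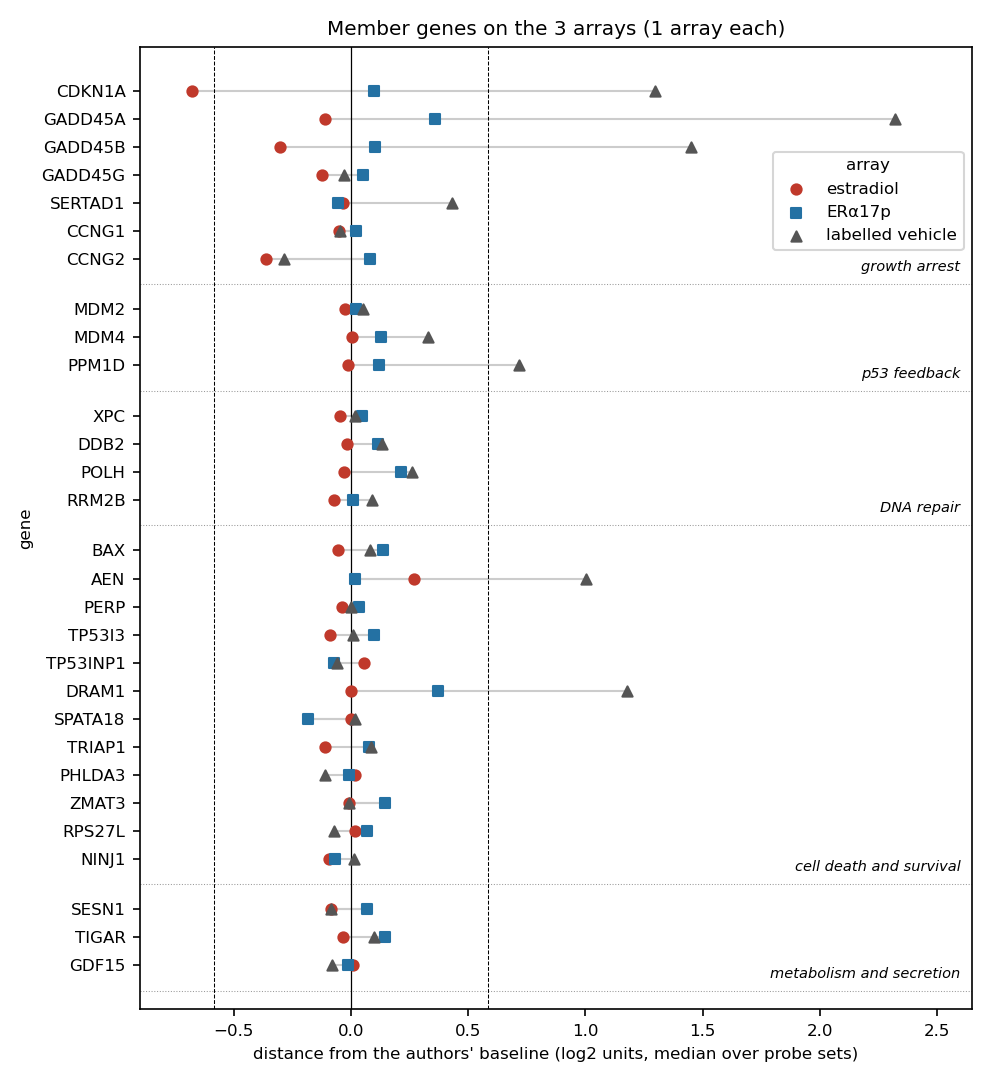
Distance from the authors' baseline in log2 units (horizontal axis) of the 29 measured members on the estradiol array (circles), the ERα17p array (squares) and the array labelled vehicle (triangles), grouped by role; dashed lines mark 1.5-fold. On the array labelled vehicle GADD45A, GADD45B, CDKN1A, DRAM1, AEN and PPM1D lie to the right of the dashed line, while CDKN1A with estradiol is the only treated value to the left of it.

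CDKN1A encodes the inhibitor of cyclin-dependent kinases through which p53 stops the cycle in G1. Its value was -0.68 on the estradiol array, 0.10 on the ERα17p array and 1.30 on the array labelled vehicle, read by 1 probe set. The 3 arrays were all apart, with estradiol lowest. The gene was lower by -1.98 log2 units (3.93-fold) with estradiol and by -1.20 (2.29-fold) with ERα17p against the array labelled vehicle. Against the baseline in its place, the estradiol difference was -0.68 and that of ERα17p 0.10, which is the opposite sign.

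The GADD45 proteins are small stress sensors that bind the kinase MAP3K4 and the mitotic kinase CDK1. GADD45A stood at -0.11 with estradiol, 0.36 with ERα17p and 2.32 on the array labelled vehicle, the highest of any member on any array. Estradiol minus ERα17p was -0.47. Both treated arrays lay far below the array labelled vehicle, by -2.43 (5.41-fold) with estradiol and -1.96 (3.90-fold) with ERα17p. Among all 19775 genes these differences were the 20th and the 32nd from the lowest. GADD45B stood at -0.30 with estradiol, 0.10 with ERα17p and 1.45 on the array labelled vehicle, so that it was lower by -1.75 and -1.35. All 4 of its probe sets were past 1.5-fold in both comparisons, from -2.05 to -0.86 with estradiol and from -1.46 to -0.93 with ERα17p. GADD45G did not share this pattern. Its values were -0.12 with estradiol, 0.05 with ERα17p and -0.03 on the array labelled vehicle, and its differences from that array were -0.09 with estradiol and 0.08 with ERα17p. Against the baseline GADD45A kept a negative value with estradiol (-0.11) and had a positive one with ERα17p (0.36), and so did GADD45B (-0.30 and 0.10); none of the 4 passed 1.5-fold.

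The other growth arrest members were within 1.5-fold throughout. SERTAD1, a regulator of CDK4, came nearest among all the uncalled members, at -0.47 with estradiol and -0.48 with ERα17p. CCNG1, an unconventional cyclin and p53 target, had -0.01 and 0.07. CCNG2, its relative linked to arrest and to FOXO factors, went its own way. It stood at -0.36 with estradiol, 0.08 with ERα17p and -0.29 on the array labelled vehicle, so that the estradiol array and the array labelled vehicle lay together below the ERα17p array. All 5 of its probe sets were above the array labelled vehicle with ERα17p, by 0.23 to 0.46, and its gene value there (0.37) was the highest of any member. With estradiol they ran from -0.21 to 0.33.

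Of the genes that restrain p53, PPM1D was lower and the other 2 were not. PPM1D encodes a phosphatase that removes activating phosphates from p53 and its kinases. It stood at -0.01 with estradiol, 0.12 with ERα17p and 0.72 on the array labelled vehicle, and its differences of -0.73 and -0.60 lay just past 1.5-fold. Its probe sets had -1.0 and -0.45 with estradiol and -0.81 and -0.38 with ERα17p, so that 1 of 2 passed in each comparison. MDM2, the ubiquitin ligase that destroys p53 and a standard readout of p53 activity, lay at -0.02, 0.02 and 0.05 on the estradiol, ERα17p and labelled vehicle arrays. Its 10 probe sets spread from -0.35 to 0.10 with estradiol and from -0.38 to 0.21 with ERα17p, and none passed 1.5-fold. MDM4, the relative of MDM2 that masks p53, had -0.32 with estradiol and -0.20 with ERα17p. Of its 6 probe sets, 5 were below the array labelled vehicle in both comparisons, and the other was above it by 0.36 with estradiol and by 0.62 with ERα17p.

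Among the 12 genes of cell death and survival, AEN and DRAM1 were lower and the other 10 were not. AEN encodes a nuclease of apoptotic cells and DRAM1 a lysosomal membrane protein of autophagy. AEN stood at 0.27 with estradiol, 0.02 with ERα17p and 1.0 on the array labelled vehicle, which makes differences of -0.73 and -0.98. It is the only one of the 6 whose value was lower with ERα17p than with estradiol. DRAM1 stood at -0.00 with estradiol, 0.37 with ERα17p and 1.18 on the array labelled vehicle, with differences of -1.18 and -0.81. Each was read by 1 probe set. BAX, which opens the mitochondrial outer membrane, had -0.14 with estradiol and 0.06 with ERα17p. TRIAP1, which counters apoptosis, had the widest estradiol difference of the other 10 (-0.20), and SPATA18, of mitochondrial quality control, the widest with ERα17p (-0.20). PERP, TP53I3, TP53INP1, PHLDA3, ZMAT3, RPS27L and NINJ1 lay between -0.11 and 0.13 with estradiol and between -0.08 and 0.15 with ERα17p. These 7 include genes of cell adhesion (PERP), of oxidative stress (TP53I3) and of RNA binding (ZMAT3).

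None of the 4 DNA repair members was lower. XPC and DDB2, which find damage for nucleotide excision repair, had -0.06 and -0.15 with estradiol and 0.03 and -0.02 with ERα17p. RRM2B, a ribonucleotide reductase subunit, had -0.16 and -0.08. POLH, the polymerase that copies past ultraviolet damage, had -0.29 with estradiol and -0.05 with ERα17p. Its probe sets disagreed, from -0.66 to 0.17 with estradiol, where 2 of 6 passed 1.5-fold, and from -0.39 to 0.49 with ERα17p. The metabolic and secreted members were near 0 as well. SESN1, which restrains mTORC1, had 0.00 with estradiol and 0.16 with ERα17p, and TIGAR, which slows glycolysis, had -0.13 and 0.05. GDF15, a secreted stress cytokine, had 0.09 and 0.07, but its 3 probe sets did not move alike. The probe set whose name ends in _x_at, the suffix for probes that can take up several transcripts, stood at -0.19 with estradiol, -0.15 with ERα17p and 1.20 on the array labelled vehicle (differences of -1.39 and -1.35). The other 2 had 0.40 and 0.09 with estradiol, and 0.29 and 0.10 with ERα17p. Which of the 3 read GDF15 was not tested.

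**Figure D2:**
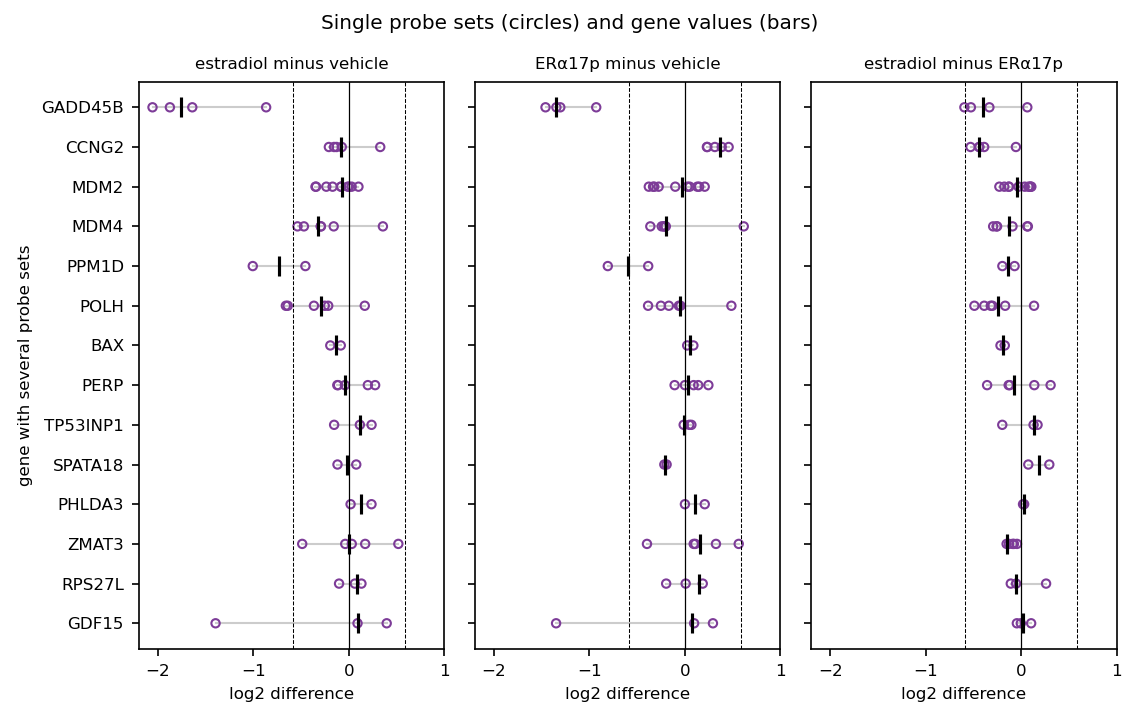
Log2 differences (horizontal axis) of the single probe sets (circles) and of the gene value (bar) for the 14 members with several probe sets, in the 3 comparisons; dashed lines mark 1.5-fold. All 4 circles of GADD45B lie left of the dashed line in both comparisons with the array labelled vehicle, those of MDM2 surround 0, and 1 of 3 of GDF15 stands far from the rest.

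The fit between probe sets was uneven. Of the 14 members with several probe sets, 10 had both signs among them with estradiol against the array labelled vehicle, 9 with ERα17p and 8 between both treatments. Of all 73 probe sets, 12 were lower with estradiol and 0 higher, and 10 were lower with ERα17p and 1 higher, that of MDM4. GADD45B gave 4 of the lower ones in each comparison. The share of lower and higher probe sets over the whole array was not counted. Among the 6 lower members, GADD45B and PPM1D had more than 1 probe set. The calls on CDKN1A, GADD45A, AEN and DRAM1 rest on 1 probe set each.

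The sequences before the starts of the lower members are shown because these genes lay high together on a single array. RefSeq promoters of GRCh38.p14 were searched for 27 of the 31 members, 5 of the 6 lower ones among them. GADD45A and PHLDA3 had no promoter entry. RRM2B and TP53INP1 were left out of the search, so the motif counts over members do not cover them. The 250 bases before the start are given 5′ to 3′ for those 5 and for GADD45G, the family member that was not lower. Capitals mark motifs found by their letters on either strand. CDKN1A is at chr6:36678464-36678713, GADD45B at chr19:2475877-2476126, GADD45G at chr9:89604762-89605011, PPM1D at chr17:60599943-60600192, AEN at chr15:88621090-88621339 and DRAM1 at chr12:101877330-101877579, all on the plus strand.
CDKN1A: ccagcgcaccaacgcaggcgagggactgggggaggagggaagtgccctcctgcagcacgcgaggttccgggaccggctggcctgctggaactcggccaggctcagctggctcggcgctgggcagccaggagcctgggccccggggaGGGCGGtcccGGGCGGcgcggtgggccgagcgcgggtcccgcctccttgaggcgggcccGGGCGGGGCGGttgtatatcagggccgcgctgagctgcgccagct
GADD45B: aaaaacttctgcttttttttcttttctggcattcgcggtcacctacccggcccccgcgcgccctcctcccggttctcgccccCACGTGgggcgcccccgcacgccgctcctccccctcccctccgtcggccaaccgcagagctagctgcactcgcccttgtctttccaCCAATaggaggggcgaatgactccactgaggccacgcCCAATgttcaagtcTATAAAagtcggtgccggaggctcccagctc
GADD45G: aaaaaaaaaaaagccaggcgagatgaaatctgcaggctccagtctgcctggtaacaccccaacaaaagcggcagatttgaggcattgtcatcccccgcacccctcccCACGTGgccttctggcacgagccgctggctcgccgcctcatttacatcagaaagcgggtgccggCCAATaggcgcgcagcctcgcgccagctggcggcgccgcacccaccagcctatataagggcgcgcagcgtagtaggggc
PPM1D: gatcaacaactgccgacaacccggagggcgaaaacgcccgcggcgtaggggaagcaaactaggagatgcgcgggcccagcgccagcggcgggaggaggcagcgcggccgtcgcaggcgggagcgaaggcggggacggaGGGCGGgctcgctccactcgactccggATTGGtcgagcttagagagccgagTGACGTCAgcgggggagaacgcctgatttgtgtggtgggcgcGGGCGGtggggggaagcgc
AEN: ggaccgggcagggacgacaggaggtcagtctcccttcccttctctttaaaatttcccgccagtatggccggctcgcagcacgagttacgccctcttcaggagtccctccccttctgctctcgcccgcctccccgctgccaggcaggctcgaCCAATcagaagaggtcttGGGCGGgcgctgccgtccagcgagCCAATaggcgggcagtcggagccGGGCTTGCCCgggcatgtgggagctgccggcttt
DRAM1: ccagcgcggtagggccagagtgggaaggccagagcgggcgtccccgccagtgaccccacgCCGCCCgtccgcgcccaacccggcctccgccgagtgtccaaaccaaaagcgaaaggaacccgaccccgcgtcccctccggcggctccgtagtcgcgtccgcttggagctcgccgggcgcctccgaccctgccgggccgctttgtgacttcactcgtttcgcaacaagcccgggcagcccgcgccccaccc
The letters searched were TATAAA of the TATA box, CCAAT of the CAAT box, GGGCGG of the GC box, TGANTCA of AP-1, TGACGTC of ATF and CREB factors, TGACGCA as its variant, CACGTG of the E-box and ATGCAAA of the octamer, besides the NF-kB, CArG and p53 half-site motifs. CDKN1A holds 4 copies of GGGCGG, the box known to bind SP1, of which a pair overlap by 1 base. Of all 35116 promoter windows, 42.6% hold this box, as do 22 of the 27 members searched. A member counts here if any of its windows holds the motif, and the 27 have 36 windows. Shares of all windows are per single window, so the units differ. GADD45B holds TATAAA (10.7% of all windows), CCAAT (32.0%) and the E-box CACGTG (6.34%). GADD45G holds CCAAT and CACGTG too, but not TATAAA. PPM1D holds TGACGTC (3.12%) on both strands, as matches that overlap, which no window of another searched member does, besides CCAAT and GGGCGG. AEN holds CCAAT as well as GGGCGG, and a p53 half-site (5.57% of all windows), which 4 of the 27 members hold. DRAM1 holds 1 match of GGGCGG alone. TGANTCA (6.57%) was in 0 of the 5 lower members and in 2 of the other 22, MDM2 and PERP. The 22 include BTG2 and FDXR, whose expression was not analysed here. The NF-kB motif (5.21%), ATGCAAA (3.94%), TGACGCA (2.09%) and CArG (1.16%) were in none of the 27. These are matches of letters in a short window, and say nothing of binding.

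Estradiol was compared with ERα17p directly, without the array labelled vehicle. CDKN1A was the only member lower, by -0.78 (1.72-fold), and none was higher. That is 1 of 29 (3.45%), beside 0.207% of all genes lower and 0.147% higher, and CDKN1A was the 12th lowest of 19775. Next came GADD45A (-0.47), CCNG2 (-0.44), GADD45B (-0.40) and DRAM1 (-0.37), none of which passed 1.5-fold. All 5 probe sets of CCNG2 were below 0, from -0.53 to -0.06, whereas those of GADD45B ran from -0.59 to 0.06, with 1 of 4 past 1.5-fold. The highest members were AEN (0.25) and SPATA18 (0.18). In all 23 of 29 members (79.3%) lay below 0, beside 53.9% of all genes, with a median of -0.13 beside -0.01. All 4 repair members and all 3 restrainers of p53 were among the 23, though by no more than -0.24. The standard deviation of the difference over all genes was 0.16 here, 0.30 for estradiol and 0.27 for ERα17p against the array labelled vehicle.

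**Figure D3:**
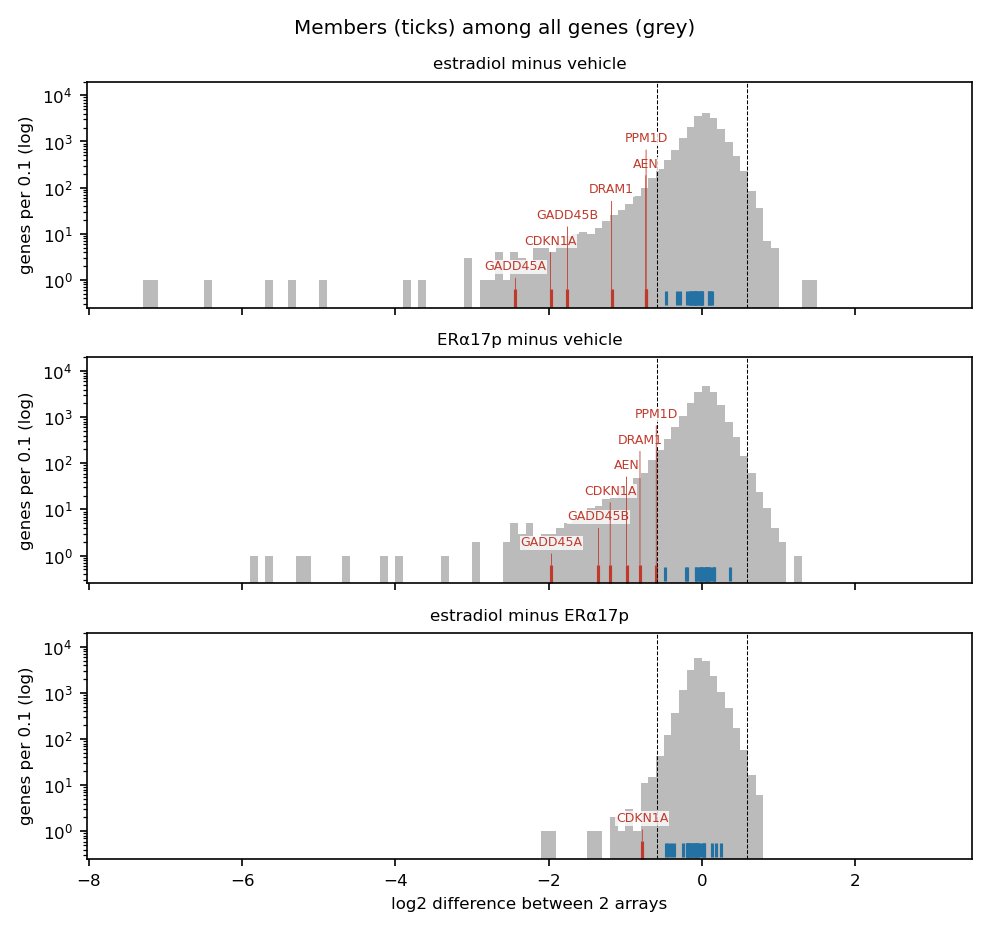
Number of genes (vertical axis, log scale) per 0.1 log2 units of difference (horizontal axis) for all 19775 genes, with the 29 members as ticks, named and red where past 1.5-fold (dashed lines). The 6 named members lie in the long left flank of both comparisons with the array labelled vehicle, and CDKN1A alone is named between both treatments.

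The rest of the pathway was read through 9 further lists, which hold 105 measured genes. Against the baseline none of the 105 was 1.5-fold lower or higher on the estradiol array, where they lay between -0.24 and 0.31, or on the ERα17p array, where they lay between -0.13 and 0.37. On the array labelled vehicle 16 of them were that far above the baseline and 3 below it, beside 2.35% and 0.303% of all genes. The counts that follow are differences from that array, and each of them is 0 with the baseline in its place. Beside all of them stand 2.93% of all genes lower with estradiol and 2.14% with ERα17p. The shares of all genes higher were 0.809% and 0.582%. Of 16 measured regulators of p53, such as its kinases and acetylases, none was lower or higher in any comparison; the widest differences with estradiol were those of the acetylase gene EP300 (-0.46), the p53 binding partner TP53BP2 (-0.33), the ubiquitin ligase gene RCHY1 (-0.32) and the kinase gene HIPK2 (0.27). Of 11 measured apoptotic targets, 4 were lower with estradiol and the same 4 with ERα17p, and none was higher. They were PMAIP1, which neutralises survival proteins of the BCL2 family (-3.09 and -2.53), the death receptor genes TNFRSF10B (-0.85 and -0.87) and TNFRSF10A (-0.64 and -0.81), and BID (-0.62 and -0.64). The median of this list was 0.04 and 0.03, so its other 7 genes lay on the other side of 0.

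Among 19 other p53 targets, 4 were lower with estradiol and 3 with ERα17p, beside 2.93% and 2.14% of all genes. PLK2, a stress-responsive polo-like kinase gene, had -2.33 and -2.38, the sestrin gene SESN2 -1.94 and -1.73, and the receptor gene EPHA2 -0.86 and -0.88. The gene value of PLK3 passed with estradiol only (-0.60, against -0.47 with ERα17p), a difference between comparisons that was not tested. Its 3 probe sets disagreed, from -0.71 to 0.13 with estradiol and from -0.98 to 0.26 with ERα17p. Of 9 relatives of the members in the sestrin, BTG/TOB and SERTAD families, 2 were lower and 1 higher with estradiol, and 2 were lower and none higher with ERα17p. The lower ones were SESN2 and SERTAD2 (-1.30 and -1.14), while SERTAD4 had -0.44 and -0.07. TOB1, an antiproliferative relative of BTG2, was higher with estradiol (0.66) and had 0.51 with ERα17p. The list of Cip/Kip and INK4 inhibitors other than CDKN1A had 6 measured genes, among them CDKN3, a phosphatase gene of neither family. CDKN2B was lower with estradiol (-0.79), with -0.28 for ERα17p. Its 2 probe sets ran from -1.33 to -0.24 with estradiol and from -0.64 to 0.09 with ERα17p. The rest lay within 1.5-fold, led by CDKN3 (0.37 and 0.32), CDKN2D (0.23 and 0.30) and CDKN1B (0.08 and 0.25).

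Of 15 factors listed as acting on CDKN1A or GADD45 genes without p53, 8 were lower with estradiol (median -0.64) and 5 with ERα17p (median -0.46). Of all genes 2.93% and 2.14% were lower, and none of the 15 was higher. MYC, which was among the 15, had -0.02 and -0.14. Against the baseline the medians of the 15 were -0.01 with estradiol and 0.06 with ERα17p. The lower ones were led by the stress factor gene DDIT3 (-1.48 and -1.30), the NF-kB subunit gene NFKB1 (-1.21 and -1.08), KLF6 (-1.19 and -1.05) and EGR1 (-1.06 and -1.49). KLF4 passed in both (-0.64 and -0.72). ATF4 had -0.75 with estradiol and -0.58 with ERα17p, just short of 1.5-fold, FOXO3 had -0.73 and -0.49, and FOXO1 had -0.70 and -0.46. The 5 probe sets of KLF6 ran from -1.35 to 0.22 with estradiol, and the 3 of FOXO1 from -0.79 to 0.13. On the other side, cell cycle genes that CDKN1A is known to restrain were higher in 2 of 13 cases with estradiol (PLK1 0.60, MKI67 0.60) and in 3 of 13 with ERα17p (PLK1 0.62, MKI67 0.61, CCNA2 0.60). Of all genes, 0.809% were higher with estradiol and 0.582% with ERα17p. None of the 13 was lower, the medians were 0.28 and 0.39, and TOP2A had 0.38 and 0.51. On the arrays themselves MKI67 stood at -0.02 with estradiol, -0.02 with ERα17p and -0.63 on the array labelled vehicle. PLK1 stood at -0.04, -0.03 and -0.65 in the same order. For both genes only the array labelled vehicle lay far from the baseline. Between estradiol and ERα17p none of the 9 lists held a gene past 1.5-fold. PMAIP1 (-0.55) and CDKN2B (-0.51) came nearest.

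**Figure D4:**
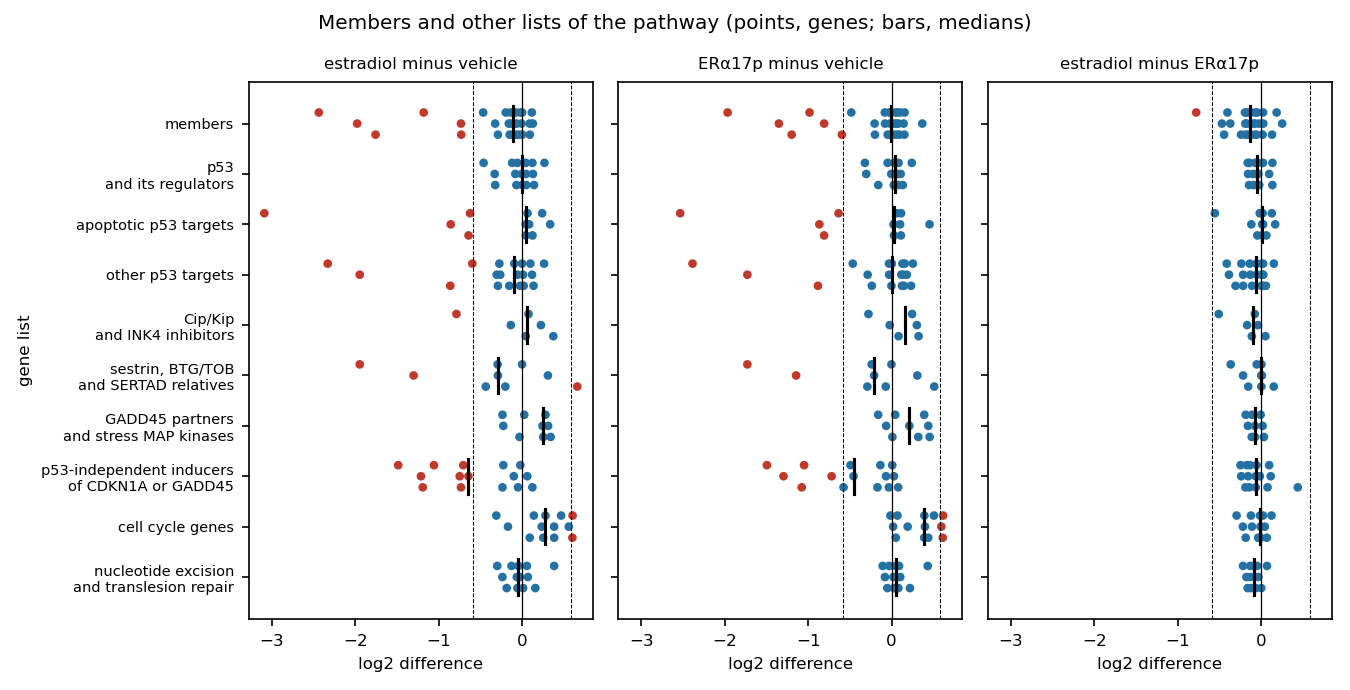
Log2 differences (horizontal axis) of the genes (points, red where past 1.5-fold) of the members and of 9 further lists of the pathway, with each list's median as a bar, in the 3 comparisons. In both comparisons with the array labelled vehicle a few points of several lists lie far left of the dashed line at 1.5-fold while most medians stay near 0. The list named p53-independent inducers has the lowest median and that of cell cycle genes the highest.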

How the data were processed

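RNA of SKBR3 cells was measured on 3 Affymetrix arrays, 1 for each treatment, grouped by the sample labels. No label tells whether the cultures were independent. The deposited log2 values were made by the authors with RMA, per the submitters' processing notes (background correction, quantile normalisation and probe summary); no source names the log base, which was taken from RMA. Column medians lay between -0.02 and 0.00, while 3979 of 54675 probe sets (7.28%) held columns that mirrored each other around 0 within 1e-06, which a median over further arrays gives. The values were therefore taken as centred on a baseline, and no filter on dim probe sets was possible. Signal over background is unknown, and the number of arrays limits the precision.

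Of the probe sets, 41091 had 1 symbol in the platform annotation, 1801 had several and 11721 were unnamed here; 62 controls were left out. Entrez IDs matched GRCh38.p14 for 41037, and 0 symbols changed. Genes took the median of their probe sets, and a comparison was the difference of gene values of 2 arrays, called at 1.5-fold, with no test (Python 3.11.15, pandas 2.3.3). The code that makes the calls, not the calls themselves, was tested on simulated data. All members were accounted for; those past 1.5-fold were described in full, and of each other list the 4 genes with the widest difference were named, besides genes that passed where 5 or fewer did. ATF4, FOXO3, FOXO1 and KLF4 were named after their values were seen. Members and lists were chosen with earlier results of these data known. Alternatives were the mean over probe sets, no _x_at or _s_at probe sets, median centring, the baseline as reference, 2-fold, and every probe set past 1.5-fold.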

Additional observations from a re-analysis of the deposited data

How the results depend on the processing

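No paired analysis was possible because each group had 1 array. With the baseline in place of the array labelled vehicle, the lower members numbered 1 of 29 with estradiol and 0 of 29 with ERα17p, and the medians over the members were -0.0363 with estradiol and 0.0702 with ERα17p. AEN then had 0.27 with estradiol, and with ERα17p CDKN1A had 0.10, GADD45A 0.36, GADD45B 0.10, PPM1D 0.12, AEN 0.0188 and DRAM1 0.37, all of the opposite sign; the cause was not tested. At 2-fold 4 members were lower with estradiol, 3 with ERα17p and 0 between both treatments. Without _x_at and _s_at probe sets 4 of 23 members were lower in each comparison with the array labelled vehicle and 0 between both treatments. CDKN1A and AEN dropped out there, since neither has another probe set. GADD45B then had -0.86 with estradiol, -0.93 with ERα17p and 0.06 between both treatments. Centred on the median over all genes, the ERα17p median over the members was -0.0463. With the mean over probe sets the counts were 6, 6 and 1, and with every probe set past 1.5-fold 5, 5 and 1, without PPM1D. Among these settings, the share of all genes was counted for the baseline alone.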

Other observations

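The partners and downstream kinases of the GADD45 proteins were also read. None of the 9 measured genes passed 1.5-fold in any comparison. Their medians were 0.24 with estradiol and 0.21 with ERα17p against the array labelled vehicle, led by MAP2K6, a kinase of the stress pathway (0.34 and 0.45), GADD45GIP1, which binds GADD45 proteins (0.31 and 0.32), CCNB1 (0.28 and 0.39) and CDK1 (0.25 and 0.44). Of 13 further measured genes of nucleotide excision and translesion repair and of nucleotide supply, none passed either. RRM2, the replicative counterpart of RRM2B, had 0.38 and 0.43, RRM1 0.06 and 0.22, the nuclease gene ERCC5 -0.30 and -0.08, and the polymerase gene REV3L -0.24 and -0.11. All of these differences share the array labelled vehicle.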
